A study of Mus musculus with 8 samples.

Results

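The aminoacyl-tRNA synthetases are the enzymes that join each amino acid to its tRNA before translation. A mouse cell translates in the cytosol and in the mitochondrion, and for most amino acids a separate nuclear gene encodes the enzyme of each compartment. Several cytosolic enzymes are held together in the multisynthetase complex, while the mitochondrial enzymes are imported as precursors and serve the few proteins that the mitochondrial genome encodes. Many genes of the cytosolic enzymes are known as targets of ATF4, the transcription factor whose translation rises when eIF2α is phosphorylated under amino acid shortage or endoplasmic reticulum stress. Of the 16538 genes of the DN3 thymocyte table, 37 were chosen by symbol as synthetase genes, 20 of them cytosolic and 17 mitochondrial (symbols ending in 2). The 20 cytosolic and 16 of the mitochondrial genes are described. The rule uses symbols and no measured value, but the family was picked with earlier results of these data known. Gars and Kars each encode both a cytosolic and a mitochondrial form, and Eprs charges both glutamate and proline.

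RNA was sequenced from CD4- CD8- CD44- CD25+ stage 3 (DN3) thymocytes sorted from 6-week-old C57BL/6 mice, in 4 libraries for each genotype. Controls carried floxed Sel1l alleles without Cre (Sel1l-f/f), and Sel1l CKO mice carried the same alleles with the Cre transgene hCD2cre, whose human CD2 promoter is active in lymphoid cells and, in the thymus, from the early T lineage progenitor on. Sel1l encodes the adaptor of the HRD1 ubiquitin ligase in endoplasmic reticulum-associated degradation. The labels number the libraries without tying them to mice. The study's methods count n as independent biological replicates unless a legend says otherwise.

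Control replicates 1 to 4 had 1.83, 1.66, 1.61 and 1.57 RPKM of Sel1l, and the Sel1l CKO libraries, in the same order, had 0.917, 0.876, 1.32 and 1.23 RPKM. Sel1l was lower in every Sel1l CKO library (log2 fold change -0.64 ± 0.14 SE, adjusted p = 0.0429), and further below control in Sel1l CKO replicates 1 and 2 than in 3 and 4. RPKM here are reads scaled to the length of the gene and the size of the library, and reads from exons outside the deleted stretch still count. Library totals ran from 32900253 to 50401359 reads, and the synthetase genes held between 323 and 37870 reads in a library. The 14 DN3 marker genes were all expressed, with summed levels of 755 to 882 RPKM in controls and 696 to 727 RPKM in Sel1l CKO. Their median log2 fold change was -0.22, and 0 of 14 passed the limma test (6 were lower at an unadjusted p under 0.05, and limma voom called 0). Over all 10177 genes tested, limma called 0.894% lower, and 1050 were lower at that unadjusted p. For 4 of the 14 every Sel1l CKO value was below every control value (Notch3, Cd3e, Cd3g and Bcl11b), as for 643 of all genes tested. All 7 B lineage and plasma cell markers averaged under 0.1 RPKM, and summed to at most 0.339 RPKM in any library. The 5 erythroid markers present summed to 0 to 1.12 RPKM in controls and 0.465 to 2.66 RPKM in Sel1l CKO. The 6 myeloid and dendritic markers present summed to 2.15 to 2.48 RPKM in controls and 0.715 to 1.56 RPKM in Sel1l CKO. Of these 6, 5 averaged under 0.1 RPKM, and the sum was mostly Lyz2. Markers of thymic stroma summed to 4.26 to 6.1 RPKM in controls and 2.86 to 3.58 RPKM in Sel1l CKO. Here 4 of the 6 markers averaged under 0.1 RPKM, and the sum was mostly Epcam and Pecam1. Pecam1 overlapped between genotypes (log2 fold change -0.06 ± 0.13). Of these markers the epithelial gene Epcam was called lower (log2 fold change -0.98 ± 0.14, adjusted p = 0.00482, and 0.00218 by limma voom). The myeloid marker Lyz2 was called lower by limma voom (adjusted p = 0.045) and not by limma (adjusted p = 0.0847). The part of these markers in the differences described here was not tested, and in bulk RNA a change in the cells present and a change of RNA per cell cannot be told apart.

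In Sel1l CKO DN3 thymocytes part of the cytosolic enzymes had higher RNA, among them Gars, which serves both compartments. No gene of a separate mitochondrial enzyme (symbol ending in 2) passed the test. By limma over all 10177 genes with a mean of at least 0.1 RPKM (adjusted p under 0.05), 10 of the 20 cytosolic synthetase genes were called higher, where 2.96% of all genes tested were called higher. All 20 cytosolic genes had a log2 fold change above 0, with a median of 0.54 and a range from 0.02 to 1.16, against a median of -0.01 over all genes tested. Of the 15 mitochondrial genes tested, 0 were called (2 were higher at an unadjusted p under 0.05, and limma voom called 0 of 16), and 9 had a log2 fold change above 0, with a median of 0.06 and a range from -0.30 to 0.34. A count of 0 in 15 is near the 2.96% called higher over all genes tested. At the same unadjusted p, 957 of the 10177 genes were higher. By limma voom on recovered reads, 12 of the 20 cytosolic genes were called higher, where 2.85% of all genes tested were. No synthetase gene was called lower by limma or by limma voom, where by limma 0.894% of all genes tested were. The lowest Sel1l CKO value exceeded the highest control value for 13 cytosolic and 2 mitochondrial genes, as it did for 7.40% of the genes tested. The number of cytosolic genes called fell when a control was left out, as did the number of all genes called in either direction. With all libraries 392 of all genes were called. Without control replicate 3 the cytosolic count was 3 (Nars, Sars and Wars), with 242 of all genes called. Without control replicate 2 it was 5, with 266 of all genes called. Without Sel1l CKO replicate 2, the library with the highest values, the same 10 genes were called, with 322 of all genes.

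**Figure D1:**
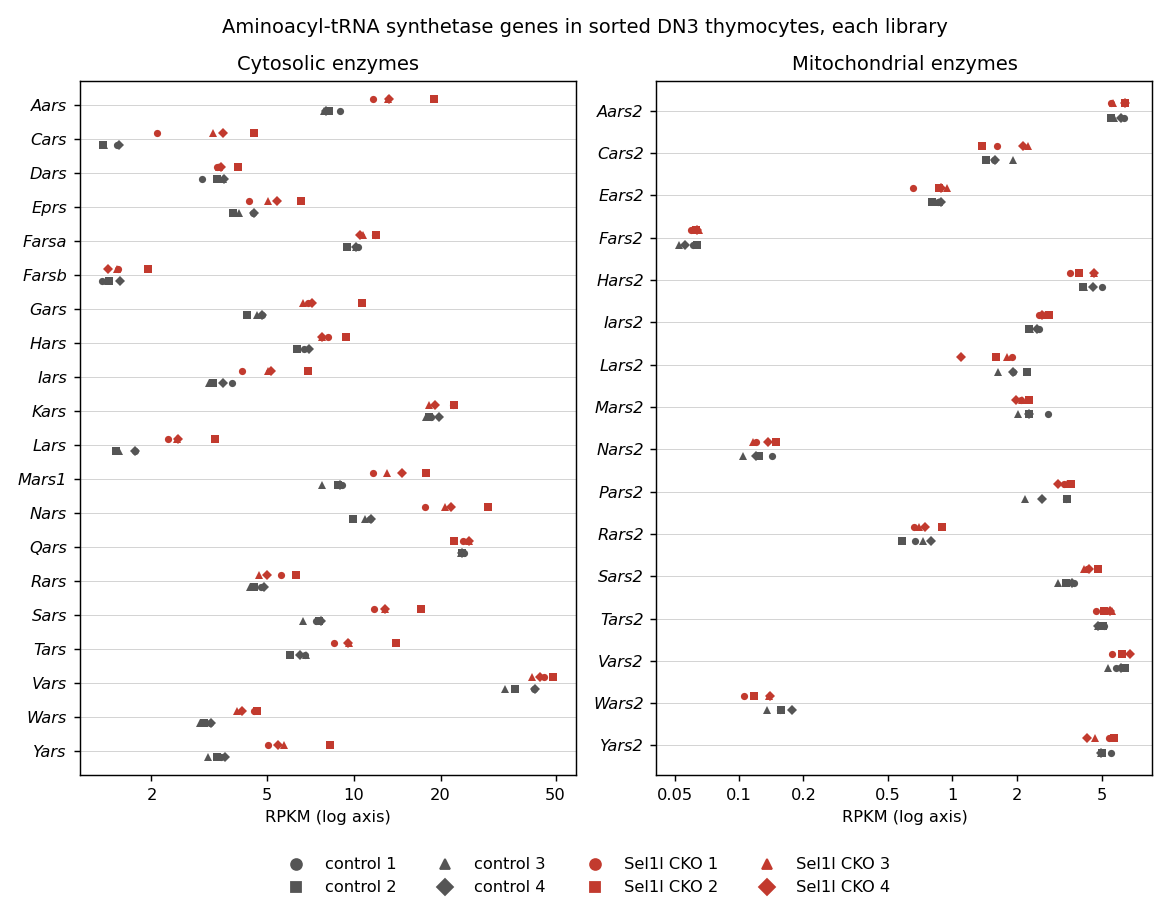
RPKM of each synthetase gene in each library (log axis), cytosolic enzymes on the left and mitochondrial enzymes on the right, with controls in grey, Sel1l CKO in red and the marker shape giving the replicate number. The red points lie to the right of all grey points for 13 cytosolic genes and for 2 mitochondrial genes, Iars2 and Sars2.

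Cars, the cysteinyl-tRNA synthetase (chr7:143557230-143600090, minus strand, GRCm38), showed the largest difference. In replicate order, here and throughout, the control libraries had 1.52, 1.36, 1.37 and 1.55 RPKM of Cars and the Sel1l CKO libraries 2.09, 4.52, 3.27 and 3.54 RPKM. The Sel1l CKO libraries thus differed more among themselves than the controls, with replicate 2 highest and replicate 1 lowest, and the groups did not overlap (2.32-fold by means, log2 fold change 1.16 ± 0.20, adjusted p = 0.0159). Nars, which charges asparagine, was at 11.4, 9.94, 11 and 11.5 RPKM in controls and at 17.7, 29.3, 20.7 and 21.8 RPKM in Sel1l CKO. Its mean was 2.04-fold higher (log2 fold change 1.01 ± 0.14, adjusted p = 0.00455). Sars, the seryl-tRNA synthetase (chr3:108424865-108445209, minus strand), was at 7.43, 7.6, 6.71 and 7.73 RPKM in controls and at 11.8, 17.1, 12.9 and 12.8 RPKM in Sel1l CKO. The lowest Sel1l CKO value of Sars was well above the highest control value, and it had the lowest adjusted p of the family (log2 fold change 0.88 ± 0.11, adjusted p = 0.00295).

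Yars, the tyrosyl-tRNA synthetase (chr4:129189760-129219607, plus strand), was at 3.47, 3.37, 3.13 and 3.6 RPKM in controls and at 5.07, 8.3, 5.74 and 5.49 RPKM in Sel1l CKO (log2 fold change 0.83 ± 0.14, adjusted p = 0.0147). Aars, which charges alanine (chr8:111033144-111057664, plus strand), was at 8.98, 8.24, 7.91 and 8.01 RPKM in controls and at 11.7, 19, 13.2 and 13.3 RPKM in Sel1l CKO (log2 fold change 0.76 ± 0.14, adjusted p = 0.0173). For both genes the groups were separate, with 3 Sel1l CKO libraries close together and replicate 2 above them. Gars, the glycyl-tRNA synthetase of both compartments (chr6:55038007-55079500, plus strand), was at 4.83, 4.28, 4.63 and 4.84 RPKM in controls and at 6.96, 10.7, 6.68 and 7.16 RPKM in Sel1l CKO (log2 fold change 0.73 ± 0.14, adjusted p = 0.0248). Mars1, which charges methionine, that of the initiator tRNA included (chr10:127296221-127311786, minus strand), was at 9.11, 8.84, 7.8 and 8.98 RPKM in controls and at 11.7, 17.8, 13.1 and 14.7 RPKM in Sel1l CKO (log2 fold change 0.71 ± 0.12, adjusted p = 0.0157). The Mars1 gene overlaps Ddit3 on the opposite strand, Ddit3 was itself called higher (log2 fold change 1.37 ± 0.18, adjusted p = 0.00355), and the strand setting of the counting is not given in the sources used here.

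Lars, the leucyl-tRNA synthetase, which also serves as a leucine sensor upstream of mTORC1, was at 1.75, 1.51, 1.54 and 1.76 RPKM in controls and at 2.29, 3.32, 2.45 and 2.48 RPKM in Sel1l CKO (log2 fold change 0.67 ± 0.12, adjusted p = 0.0182). Tars, which charges threonine (chr15:11382301-11399665, minus strand), was at 6.81, 6.05, 6.87 and 6.52 RPKM in controls and at 8.58, 14, 9.63 and 9.59 RPKM in Sel1l CKO (log2 fold change 0.65 ± 0.14, adjusted p = 0.0415). Tars was the least stable call, kept in 11 of the 21 alternative fits and lost in 6 of the 8 that each left out 1 library (each control, and Sel1l CKO replicates 3 and 4). Gars lost its call without any 1 control, Aars without control replicate 2, 3 or 4, Cars and Lars without control replicate 2 or 3, and Mars1 and Yars without control replicate 3, with adjusted p up to 0.0749. Wars, the tryptophanyl-tRNA synthetase, an interferon-inducible gene in many cells (chr12:108860030-108894174, minus strand), was at 3.18, 3.05, 2.95 and 3.22 RPKM in controls and at 4.51, 4.64, 3.95 and 4.11 RPKM in Sel1l CKO. Its difference was the smallest of the 10 called genes but had little spread (log2 fold change 0.47 ± 0.07, adjusted p = 0.00793), and Wars, Nars and Sars were called in all 21 alternatives. The pattern of the libraries was not shared by all called genes. Sel1l CKO replicate 2 was the highest library for all 10 of the called synthetase genes and for 19 of the 20 cytosolic genes, but for 25.2% of the 301 genes called higher and for 7 of the 16 mitochondrial genes. Relative to the control mean, the 10 called genes averaged 0.54, 1.17, 0.69 and 0.74 on the log2 scale in Sel1l CKO replicates 1 to 4. The 16 mitochondrial genes averaged -0.06, 0.07, 0.07 and 0.03 in the same libraries. Against the controls of the same replicate numbers, the 10 called genes were higher by 0.55 (Wars) to 1.10 (Nars) within replicates 1 and 2 and by 0.39 (Wars) to 1.22 (Cars) within replicates 3 and 4, on the log2 scale.

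**Figure D2:**
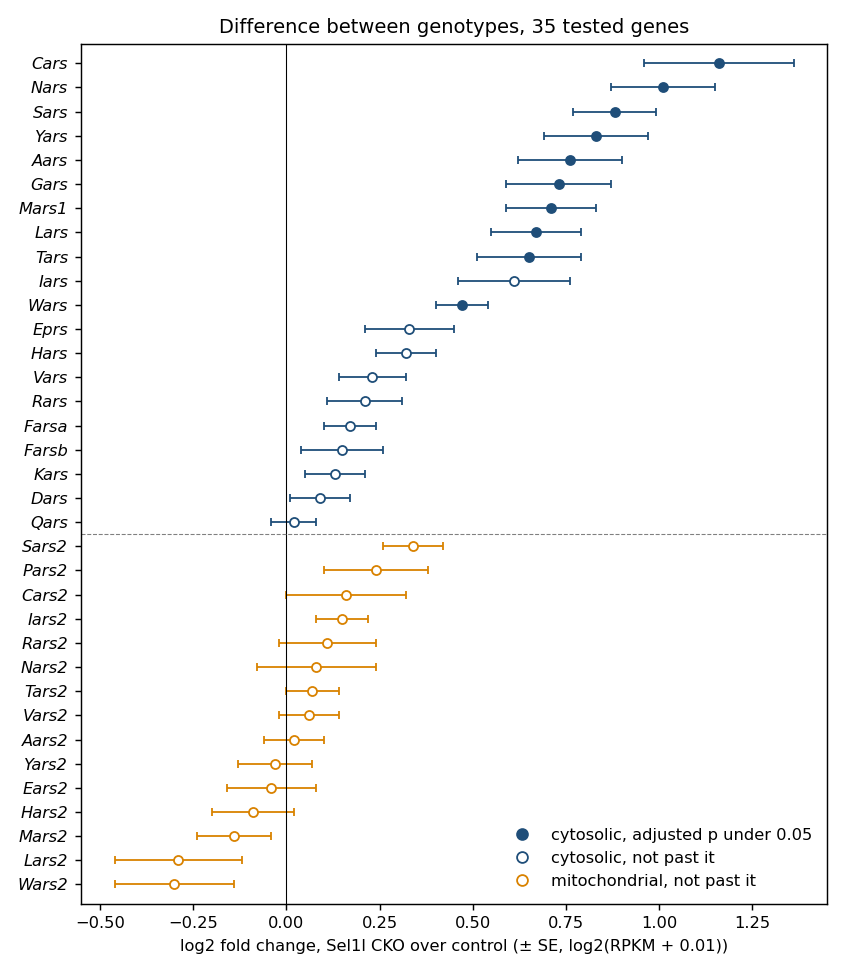
Log2 fold change of Sel1l CKO over control with its standard error for the 35 synthetase genes tested, cytosolic enzymes in blue above the dashed line and mitochondrial enzymes in orange below it, filled where the adjusted p was under 0.05. The 10 filled points lie between 0.47 and 1.16, and all mitochondrial points lie between -0.30 and 0.34.

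The other 10 cytosolic genes did not pass the test. Iars, the isoleucyl-tRNA synthetase (chr13:49682100-49734267, plus strand), came nearest in size, at 3.79, 3.27, 3.15 and 3.54 RPKM in controls and 4.1, 6.96, 5.08 and 5.2 RPKM in Sel1l CKO. Its groups were separate, but Sel1l CKO replicate 1 lay just above the controls (log2 fold change 0.61 ± 0.15, adjusted p = 0.0597). Hars, which charges histidine, was at 6.75, 6.4, 6.35 and 7.02 RPKM in controls and at 8.17, 9.44, 7.81 and 7.8 RPKM in Sel1l CKO (log2 fold change 0.32 ± 0.08, adjusted p = 0.0602). It overlaps Hars2 on the opposite strand. Both Iars and Hars were called in 6 of the 21 alternatives, among them limma voom (adjusted p = 0.0313 for Iars and 0.0467 for Hars), and their adjusted p ranged up to 0.154. Kars, the lysyl-tRNA synthetase of both compartments, was at 18.5, 18.2, 17.8 and 19.7 RPKM in controls and at 22, 22.2, 18.2 and 19.1 RPKM in Sel1l CKO, so that Sel1l CKO replicates 3 and 4 lay within the control range (log2 fold change 0.13 ± 0.08, adjusted p = 0.404). Of the 2 genes that serve both compartments, Gars was thus past the threshold and Kars was not, and the difference between them was not tested. Qars, which charges glutamine, ran from 23.5 to 24.1 RPKM in controls and from 22.3 to 25.1 RPKM in Sel1l CKO, and it was the 1 cytosolic gene whose lowest library was Sel1l CKO replicate 2 (log2 fold change 0.02 ± 0.06, adjusted p = 0.88). The remaining 6, Eprs, Vars, Rars, the Farsa and Farsb subunits of the phenylalanine enzyme, and Dars, had log2 fold changes from 0.09 to 0.33 and adjusted p from 0.185 (Eprs) to 0.593 (Dars). Farsa was separate between genotypes at 10.1 ± 0.411 RPKM (SD, n = 4) in controls and 11.3 ± 0.772 RPKM in Sel1l CKO, with an adjusted p of 0.219.

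The calls fell in both catalytic classes. Of the 9 cytosolic genes of class I, whose active site is a Rossmann fold, 5 were called higher with a median log2 fold change of 0.61, and of the 10 of class II, built on an antiparallel β-sheet, 5 were called with a median of 0.48 (Eprs, which has a domain of each, was not called). Of the 8 genes whose enzymes sit in the multisynthetase complex (Dars, Eprs, Iars, Kars, Lars, Mars1, Qars and Rars), 2 were called, Lars and Mars1, with a median log2 fold change of 0.27 for the 8. Of the 12 genes whose enzymes do not, 8 were called, with a median of 0.69. Limma voom called 3 of the 8 and 9 of the 12. Over all genes tested, limma called 2.96% higher. The difference between the enzymes in the complex and the others was not tested. Of the 3 scaffold genes of the complex, Aimp1 was called higher, at 3.24 ± 0.088 RPKM (SD, n = 4) in controls and 4.05 ± 0.33 RPKM in Sel1l CKO (log2 fold change 0.32 ± 0.07, adjusted p = 0.0494). Aimp2 (0.12 ± 0.12) and Eef1e1 (0.14 ± 0.10) were not.

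The mitochondrial partners of the called genes gave the contrast library by library. Cars2 had 1.56, 1.44, 1.92 and 1.58 RPKM in controls and 1.61, 1.38, 2.25 and 2.14 RPKM in Sel1l CKO, with Sel1l CKO replicate 2, where Cars was highest, as its lowest library. Nars2 was at 0.143, 0.124, 0.104 and 0.12 RPKM in controls and at 0.12, 0.149, 0.116 and 0.136 RPKM in Sel1l CKO. Yars2 was at 5.51, 5.05, 4.95 and 4.95 RPKM in controls and at 5.43, 5.7, 4.67 and 4.27 RPKM in Sel1l CKO. All 3 overlapped between genotypes, with log2 fold changes of 0.16 ± 0.16, 0.08 ± 0.16 and -0.03 ± 0.10. Aars2 was at 6.38, 5.55, 5.69 and 6.14 RPKM in controls and at 5.54, 6.46, 5.66 and 6.45 RPKM in Sel1l CKO. Mars2 was at 2.81, 2.28, 2.02 and 2.29 RPKM in controls and at 2.09, 2.29, 2.11 and 1.98 RPKM in Sel1l CKO. Tars2 was at 5.16, 5.08, 4.8 and 4.8 RPKM in controls and at 4.7, 5.12, 5.6 and 5.46 RPKM in Sel1l CKO. These too overlapped, with log2 fold changes of 0.02 ± 0.08 for Aars2, -0.14 ± 0.10 for Mars2 and 0.07 ± 0.07 for Tars2. Lars2 was at 1.93, 2.24, 1.64 and 1.92 RPKM in controls and at 1.91, 1.6, 1.81 and 1.1 RPKM in Sel1l CKO, its low mean resting mostly on Sel1l CKO replicate 4 (log2 fold change -0.29 ± 0.17, adjusted p = 0.391). Wars2 was at 0.155, 0.157, 0.135 and 0.176 RPKM in controls and at 0.105, 0.117, 0.138 and 0.139 RPKM in Sel1l CKO, with replicates 3 and 4 inside the control range (log2 fold change -0.30 ± 0.16, adjusted p = 0.329). Sars2 was the mitochondrial gene nearest the threshold, at 3.73, 3.42, 3.11 and 3.64 RPKM in controls and 4.26, 4.82, 4.12 and 4.37 RPKM in Sel1l CKO. Its groups did not overlap (log2 fold change 0.34 ± 0.08, adjusted p = 0.0568), and it passed in 5 of the 21 alternatives, but not in limma voom (adjusted p = 0.053).

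The remaining 7 mitochondrial genes, Ears2, Fars2, Hars2, Iars2, Pars2, Rars2 and Vars2, were not called. Of these, 6 were tested, with log2 fold changes from -0.09 (Hars2) to 0.24 (Pars2). Iars2 was separate between genotypes, at 2.29 to 2.54 RPKM in controls and 2.55 to 2.83 RPKM in Sel1l CKO, with an adjusted p of 0.253. Fars2, the longest gene, was below the minimum of 0.1 RPKM because the deposited values divide by the gene's length with introns. It held 772 to 1321 reads in a library, and limma voom on these reads gave a log2 fold change of 0.10 ± 0.09 (adjusted p = 0.566).

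Set side by side within each library, the cytosolic and mitochondrial enzyme of the same amino acid shifted apart for most amino acids. The log2 ratio of the cytosolic to the mitochondrial RPKM was higher on average in Sel1l CKO for all 16 pairs (Eprs served for glutamate and proline, and Farsa for phenylalanine). For 12 pairs every Sel1l CKO ratio exceeded every control ratio, which gives the smallest p that 70 assignments of 8 libraries allow (exact permutation test, two-sided, p = 0.0286 for each pair, unadjusted, n = 4 per genotype). Except in Eprs to Ears2, the cytosolic gene of these pairs was itself higher in every Sel1l CKO library, so the pairs do not add separate evidence. Of single genes tested, 7.40% were higher in every Sel1l CKO library, and the share over other pairs of genes was not computed. The largest shift was in Cars to Cars2, where the ratio went from -0.16 ± 0.22 (SD) to 0.83 ± 0.60, a difference of 0.99 ± 0.32 (SE). In Cars to Cars2, Lars to Lars2 and Yars to Yars2 the mean ratio changed sign on the deposited scale, from -0.23 ± 0.22 to 0.73 ± 0.44 for leucine and from -0.59 ± 0.10 to 0.28 ± 0.27 for tyrosine. Nars to Nars2 shifted by 0.93 ± 0.13, Mars1 to Mars2 by 0.85 ± 0.13 and Wars to Wars2 by 0.77 ± 0.15. Aars to Aars2 shifted by 0.74 ± 0.12, Tars to Tars2 by 0.57 ± 0.17, and Sars to Sars2, where the mitochondrial gene was itself higher in every Sel1l CKO library, by 0.54 ± 0.08. Iars to Iars2 (0.46 ± 0.13), Hars to Hars2 (0.41 ± 0.15) and Eprs to Ears2 (0.37 ± 0.11) also separated, although Iars, Hars and Eprs did not pass the test over all genes. Without any 1 control library (for Yars, replicate 1, 2 or 3), the exact permutation p rose to 0.0571 for the pairs of Cars, Lars, Iars, Yars and Eprs with Ears2, and to 0.0857 for Hars, with all differences still above 0. In these pairs every Sel1l CKO ratio was still above every control ratio left. The rise in p came from other assignments of the remaining libraries that gave a mean difference at least as large, and not from overlap. The 4 pairs that overlapped between genotypes were Vars to Vars2, Rars to Rars2, Eprs to Pars2 and Farsa to Fars2, with differences from 0.07 to 0.17 and exact permutation p from 0.2 to 0.686.

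**Figure D3:**
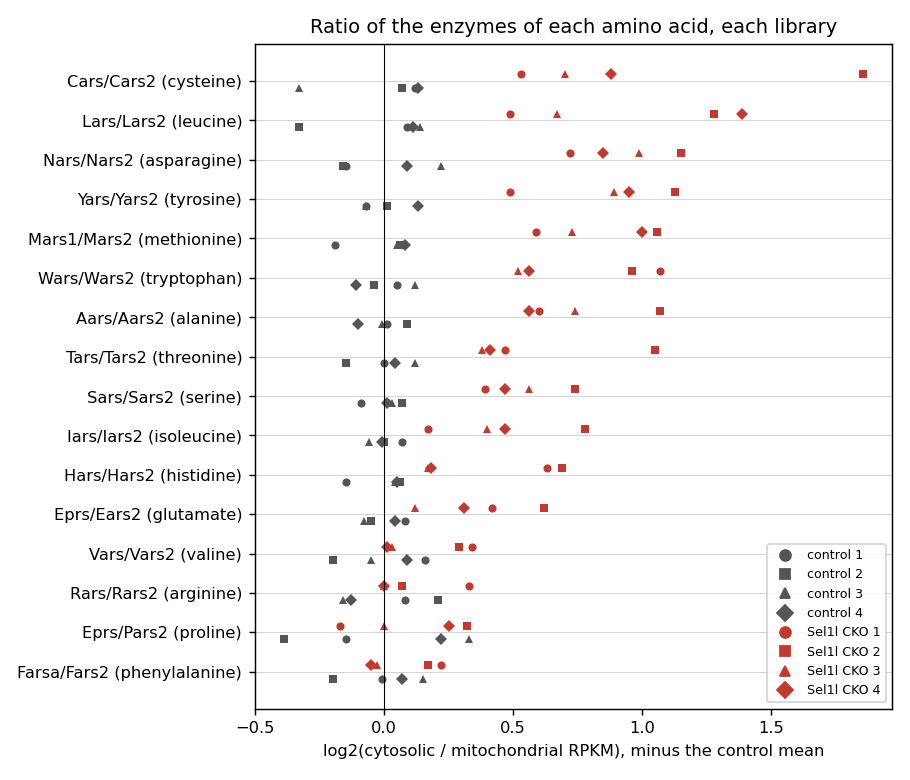
Log2 ratio of the cytosolic to the mitochondrial RPKM for the 16 pairs in each library, minus the control mean of the pair, with controls in grey, Sel1l CKO in red and the marker shape giving the replicate number. The red points lie to the right of all grey points in the upper 12 pairs and overlap them in the lower 4.

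The cytosolic genes were also the more highly expressed. Recovered reads were scaled per kilobase of exon, over all exons of the annotated coding transcripts together. This leaves out introns, but the length can differ from that of the RNA present, so levels of different genes compare only roughly. On this scale the 20 cytosolic genes had a median control level of 51 RPKM and ran from 19.3 ± 1.33 (SD, n = 4) for Cars to 148 ± 6.23 for Kars. The 16 mitochondrial genes had a median of 14.4 RPKM and ran from 2.35 ± 0.328 for Mars2 to 47.5 ± 6.03 for Lars2. For Mars2 the exon length used was that of the whole gene, 11294 bases. The 10 called genes did not sit at the top of the cytosolic order. Cars, Lars (24.7 ± 1.99) and Tars (26.2 ± 1.5) were the lowest 3, and Yars (34.8 ± 2.01), Aars (35.3 ± 2.08) and Wars (36.9 ± 1.49) came next, neighbours that lay within each other's spread. Of the called genes, Gars was the highest at 81 ± 4.54 RPKM in controls and reached 137 ± 32.8 RPKM in Sel1l CKO. The 2 genes with the highest levels, Kars and Vars (143 ± 16.4), did not differ from each other beyond their spread, and neither was called. In Sel1l CKO Cars rose to 44.6 ± 13.3 RPKM on the same scale, and the ratio of Cars to Cars2 went from 0.614 to 1.25 by means, and that of Lars to Lars2 from 0.519 to 1. Yars was above Yars2 in both genotypes on this scale, by a ratio of 3.21 in controls and 5.93 in Sel1l CKO, so the change of sign of its deposited ratio goes with the gene lengths used there.

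**Figure D4:**
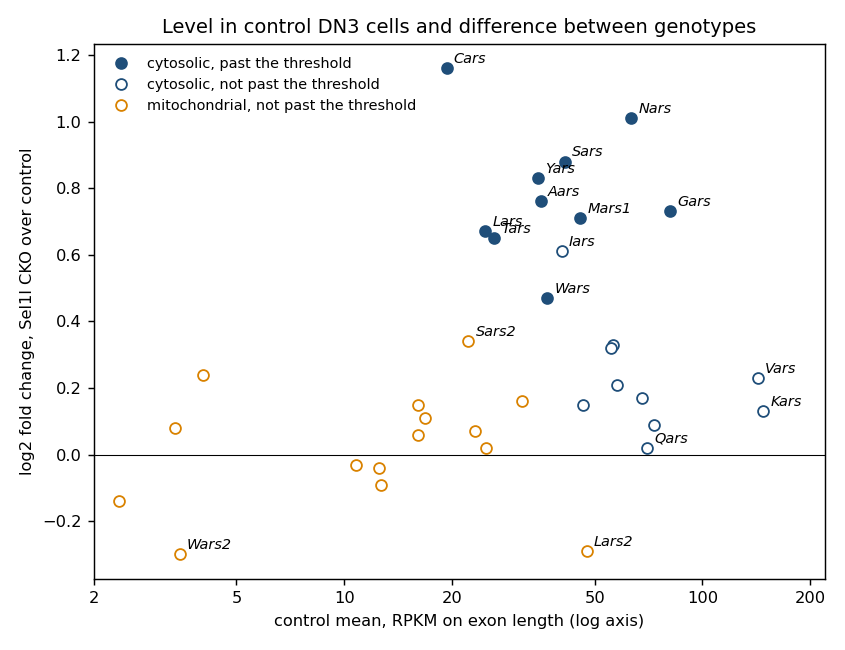
Control mean on exon length (RPKM, log axis) against the log2 fold change of Sel1l CKO over control for the 35 synthetase genes tested, cytosolic in blue and mitochondrial in orange, filled where the adjusted p was under 0.05. The filled points lie between 19.3 and 81 RPKM, and Kars and Vars, above 140 RPKM, lie near 0.13 and 0.23.

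Promoter sequence was examined because the called genes moved together. RefSeq windows of 300 bases (250 before and 50 after the transcription start, GRCm38.p6) were examined for 26 of the genes, 12 cytosolic and 14 mitochondrial. The core of the C/EBP-ATF response element, the composite site bound by ATF4 with C/EBP partners, was searched on both strands as TGATGNAA, that is TTNCATCA on the other strand. It was found in the windows of 4 genes, all cytosolic (Gars, Iars, Tars and Yars), and in 0 of the 14 mitochondrial windows. Of all 32851 windows 3.97% held it, as did 2.58% of the 8112 tested genes with a window and 6.22% of the 225 genes called higher with one. Of the called synthetase genes 5 had a window examined and 3 of these held the letters. Below are the matches of the 4 genes, in capitals, each read 5′ to 3′ on the strand of its gene, and then the bases just upstream of Sars and Mars1, which were called higher without a match, and of Yars2, the mitochondrial partner of Yars.
Gars, chr6:55037901-55038000, plus strand: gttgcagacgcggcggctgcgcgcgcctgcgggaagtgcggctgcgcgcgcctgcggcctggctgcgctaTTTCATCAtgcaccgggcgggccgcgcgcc
Tars, chr15:11399659-11399758, minus strand: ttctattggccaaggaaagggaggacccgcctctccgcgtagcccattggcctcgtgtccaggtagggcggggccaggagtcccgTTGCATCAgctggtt
Yars, chr4:129189892-129189921, plus strand: gcgacgagctcagcTGATGCAAcccgacgg
Iars, chr13:49682122-49682151, plus strand: ctggcactgtcagtaTTGCATCAcctccag
Sars, chr3:108445260-108445359, minus strand: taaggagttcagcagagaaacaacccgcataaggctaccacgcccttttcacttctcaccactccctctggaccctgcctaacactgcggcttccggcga
Mars1, chr10:127311787-127311886, minus strand: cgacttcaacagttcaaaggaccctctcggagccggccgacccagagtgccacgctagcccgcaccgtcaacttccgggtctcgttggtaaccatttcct
Yars2, chr16:16302865-16302964, plus strand: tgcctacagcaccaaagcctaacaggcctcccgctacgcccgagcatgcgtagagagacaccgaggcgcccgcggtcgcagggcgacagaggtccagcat

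The matches differed in place. In Gars and Tars the letters began at bases -30 and -15 from the start and lay in no annotated exon of GENCODE M21. In Iars they lay in the 5′ untranslated region, and in Yars they ran over the translation start codon of the annotated transcript Yars-201. A match of letters is a description and shows no binding. The ER stress response element (CCAAT and CCACG with 9 bases between, on either strand), bound by ATF6 and NF-Y, was in 0 of the 26 windows, in 0.185% of the tested genes with a window and in 4.44% of the genes called higher with one. The letters TGACGTGG of the unfolded protein response element, bound by XBP1 and ATF6, were in 0 of the 26 as well, in 1.06% of the tested genes and in 7.56% of those called higher.

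The neighbouring steps of translation were compared through gene lists that were, like the synthetases, chosen with earlier results of these data known. Among 16 other enzymes that act on aminoacyl-tRNA, such as the amidotransferase that makes mitochondrial glutaminyl-tRNA, 0 were called by limma, with a median log2 fold change of 0.09 (1 was higher at an unadjusted p under 0.05, and limma voom called 0). Of the 34 genes of tRNA transcription, maturation and export, limma called 0, with a median of 0.07. At an unadjusted p under 0.05, 4 of these were higher and 1 lower, and limma voom called 1, the tRNA exportin Xpot, at 3.76 ± 0.272 RPKM (SD, n = 4) in controls and 5.17 ± 0.803 RPKM in Sel1l CKO (voom log2 fold change 0.45, adjusted p = 0.0365). Of the 8 genes of cytosolic elongation 0 were called, with a median of 0.05, and of the 9 mitochondrial elongation and initiation factors 0 were called, with a median of 0.02. In neither list was any gene past an unadjusted p of 0.05 by limma, or past the threshold by limma voom. Over all 10177 genes tested, limma called 2.96% higher and 0.894% lower, so lists of these sizes would hold few or no calls at that share. At an unadjusted p under 0.05, 957 of the 10177 genes were higher and 1050 lower.

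Other lists tied to amino acid supply held many called genes. Of the 18 amino acid synthesis enzymes tested, 12 were called higher and 0 lower, with a median log2 fold change of 0.86, and limma voom called 13 of 20. The largest was Asns, the asparagine synthetase, at 0.167, 0.0694, 0.0911 and 0.106 RPKM in controls and 1.86, 9.4, 3.65 and 4.47 RPKM in Sel1l CKO (log2 fold change 5.19 ± 0.45, adjusted p = 0.0003). Asns had replicate 2 highest, then replicates 4, 3 and 1. Of the called synthetase genes, Aars, Cars, Lars, Mars1 and Nars had this order, and Gars, Sars, Tars, Wars and Yars did not. The match was seen in the values and not tested. Pycr1, of proline synthesis, was higher by 2.39 ± 0.20, the branched-chain aminotransferases Bcat1 and Bcat2 by 2.18 ± 0.20 and 1.27 ± 0.12, the alanine aminotransferase Gpt2 by 2.17 ± 0.39, and the mitochondrial folate enzyme Mthfd2 by 1.07 ± 0.24, all on the log2 scale. Of the 12 amino acid transporters tested, 6 were called higher, with a median of 0.46, and limma voom called 4 of 13. They were Slc7a3 (4.66 ± 0.48) and Slc7a1 (0.75 ± 0.17), which carry cationic amino acids, Slc6a9 (3.49 ± 0.52), which carries glycine, Slc1a4 (2.22 ± 0.44), which carries alanine, serine and cysteine, and Slc7a5 (1.09 ± 0.18) with its partner chain Slc3a2 (0.91 ± 0.18), which carry large neutral amino acids. By limma voom Slc6a9 (adjusted p = 0.0647) and Slc1a4 (adjusted p = 0.0552) did not pass. Of the 19 regulators of the integrated stress response tested, 8 were called higher and 0 lower, with a median of 0.23, and limma voom called 7 of 20. Chac1, which degrades glutathione, was at 0 in 3 control libraries and at 0.0546 RPKM in the other, and ran from 2.01 to 3.48 RPKM in Sel1l CKO. Nupr1, a stress-induced chromatin protein, was at 0 in 3 control libraries and ran from 0.116 to 1.25 RPKM in Sel1l CKO. Trib3, a pseudokinase that restrains ATF4, rose from 0.0854 ± 0.0399 to 4.62 ± 3.5 RPKM by limma (adjusted p = 0.000887), and did not pass by limma voom (adjusted p = 0.0592). The transcription factors Atf5 and Ddit3 (CHOP) and the leucine sensor Sesn2 were higher by 3.02 ± 0.29, 1.37 ± 0.18 and 1.54 ± 0.20. Atf4 itself, named here after its values were seen, was at 106, 98.3, 134 and 121 RPKM in controls and at 198, 211, 218 and 225 RPKM in Sel1l CKO (log2 fold change 0.90 ± 0.10, adjusted p = 0.00107). Atf4 was highest in Sel1l CKO replicate 4, and its 4 Sel1l CKO values were close together. Of the other regulators named here, Atf5, Trib3, Sesn2 and Nupr1 were highest in Sel1l CKO replicate 2, and Ddit3 and Chac1 in replicate 3. The relation of these orders to the synthetase genes was not tested, and the values are of RNA and not of ATF4 protein.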

How the data were processed

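The authors prepared stranded mRNA libraries, used STAR 2.5.2b for alignment to GRCm38 and HTSeq (2.7 in the submitters' processing notes) for counting on protein-coding genes, and deposited RPKM values, 1 column for each of 4 control and 4 Sel1l CKO libraries. The deposited RPKM divide by gene length with introns, since 74.5% of genes gave whole reads (within 0.01) on the GENCODE M21 span and 2.98% on exon length. Library totals (32900253 to 50401359) and reads were recovered from these steps. Lengths of 13 of the 37 genes chosen were solved from the values. Recovered reads summed to 97.68 to 101.49% of the totals.

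Values were tested as log2(RPKM + 0.01), for genes with a mean of at least 0.1 RPKM, with limma 3.58.1 (moderated test with trend, R 4.3.3) and Benjamini-Hochberg adjustment over all 10177 genes. Fold changes on this scale understate low genes. The fits were also run on simulated data with changes of 1 on the log2 scale, for limma in genes with a spread below the median. Smaller changes were not simulated. Ratios of enzyme pairs were tested by exact permutation in Python 3.11.15. The genes given in every library are those called, their partners, Gars and Kars, and the 3 nearest the threshold. In the lists up to 6 called genes are named, the largest changes first. The members, the lists and the motifs were chosen with earlier results of these data known. Alternatives were pseudocounts, filters, scalings, weights, a replicate block, a term for replicates 1 and 2 against 3 and 4, exon length, limma voom on recovered reads (mean of at least 10) and leaving out each library. Of the genes chosen 1, and of the promoters 1, are not reported here. Coordinates are 1-based, from GENCODE M21 for genes and RefSeq (GRCm38.p6) for promoter windows.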

Additional observations from a re-analysis of the deposited data

Results flagged for a closer look

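In 2 of the 72 groups of 4 libraries (36 genes in 2 genotypes), 1 library stood far from the others, and chance gives about 3.6. Both were Sel1l CKO replicate 2. Gars was at 10.7 RPKM there, against 6.68 to 7.16 RPKM in the other Sel1l CKO libraries. Dars was at 3.99 RPKM against 3.37 to 3.47 RPKM. Without that library Gars was still called higher.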

How the results depend on the processing

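The number of cytosolic synthetase genes called higher was 10, and 7 to 12 in the 13 alternatives that kept all libraries. Leaving out 1 library at a time gave 3 (without control replicate 3) to 11 cytosolic genes (without Sel1l CKO replicate 1), 237 to 346 of all genes called against 392, and 0 mitochondrial genes called higher. Array weights called 665 of all genes. The mitochondrial count was 1, Sars2, with a mean RPKM of at least 1, with that minimum and a pseudocount of 0.1, with array weights, with the replicate term and on exon length. No synthetase gene was called lower in any alternative. None of the 210 values of the 10 called genes changed sign, and 26 lost the call. Genes near 0 did change sign. Qars was at -0.04, Aars2 at -0.02 and Ears2 at 0.01 under quantile normalization, and Aars2 at -0.01 and Ears2 at 0.05 with array weights. Without single libraries Qars ran from -0.00 to 0.06, Aars2 from -0.02 to 0.06, Ears2 from -0.10 to 0.08, Yars2 from -0.10 to 0.04 and the pair of Eprs and Pars2 from -0.03 to 0.21. Farsa to Fars2 differed by 0.15 with a pseudocount of 1 (exact permutation p = 0.0286). Of the 160 pair values 23 lost the threshold, all without 1 control library, with differences of 0.34 to 1.04 and the ratios of the genotypes still separate. With replicate numbers as a replicate block, 278 genes and 7 cytosolic synthetase genes were called (Gars, Lars and Tars were not). Same-numbered libraries correlated in their deviations by 0.056 to 0.22, so the numbers were not taken as pairing. The deviations of control replicates 1, 2, 3 and 4 correlated best with those of Sel1l CKO replicates 2, 1, 4 and 4. With a term for replicates 1 and 2 against 3 and 4, 583 of all genes and 11 cytosolic synthetase genes were called.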
